A study of Mus musculus with 6 samples.

Results

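The axon guidance ligands and receptors examined here are the protein-coding genes whose symbols begin with Sema, Plxn, Nrp, Efna, Efnb, Epha, Ephb, Slit, Robo, Ntn or Unc5, together with Dcc, with the Slitrk genes left out. The rule found 70 of the 24935 genes measured, of which 16996 are protein-coding. It used names and no measured value, but this set of genes was chosen with earlier results of these data known. Of the 70 genes, 34 are ligands and 34 are receptors, and 2, Unc50 and Unc5cl, were taken by their spelling and are not known as guidance receptors. C57BL/6 mouse pups were kept with their dams in 85% oxygen (hyperoxia-exposed) or in room air (air-exposed) from postnatal day (P) 2 to P14, and polyA RNA of the left hippocampus was sequenced at P14 from 3 mice per group. The exposure is a model of the oxygen given to preterm infants, and no gene was altered in either group. Each value is a normalized count, that is, the reads on a gene divided by 1 size factor of its library. Libraries are named by group and by the number of their deposited column, which does not give the animal. Every direction follows the group named in these columns, was not checked against a mark of the exposure outside these libraries, and would turn if the names of the groups were exchanged.

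Axon guidance molecules steer growing axons and dendrites by attraction or repulsion, and many go on to shape synapses. Secreted class 3 semaphorins bind neuropilins, which signal through plexins, whereas membrane-bound semaphorins mostly bind plexins directly. Ephrins are held in the membrane and signal to Eph receptor tyrosine kinases on a neighbouring cell, Slits repel through Robo receptors, and netrins attract through Dcc and repel through the Unc5 receptors. In the developing hippocampus these systems guide the perforant path and the mossy fibres and keep connections within their layers.

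The libraries held 30384052 to 38746972 reads on genes, and the median tested gene had 449 to 576 reads per library, so that the spread between mice, more than counting error, set the precision. No batch was given in the labels. Summed markers of hippocampal granule and pyramidal cells were at 58643 to 60303 in air and at 42304 to 56664 in hyperoxia, with 5 of 10 genes lower and 1 higher. Those of oligodendrocytes were at 222211 to 338616 in air and 151013 to 184151 in hyperoxia, with 7 of 8 genes lower. Markers of regions next to the hippocampus were also present. The neocortex list summed to 6495 to 7066 in air and 8508 to 12070.5 in hyperoxia, with 4 of 6 genes higher. The thalamus list summed to 5951 to 6519 in air and 7896 to 11850.3 in hyperoxia, with 4 of 8 higher. The choroid plexus list stood at 15739 in hyperoxia library 3 and between 3985 and 6157 in the other libraries. No gene of these lists was at 0 in all libraries.

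**Figure D1:**
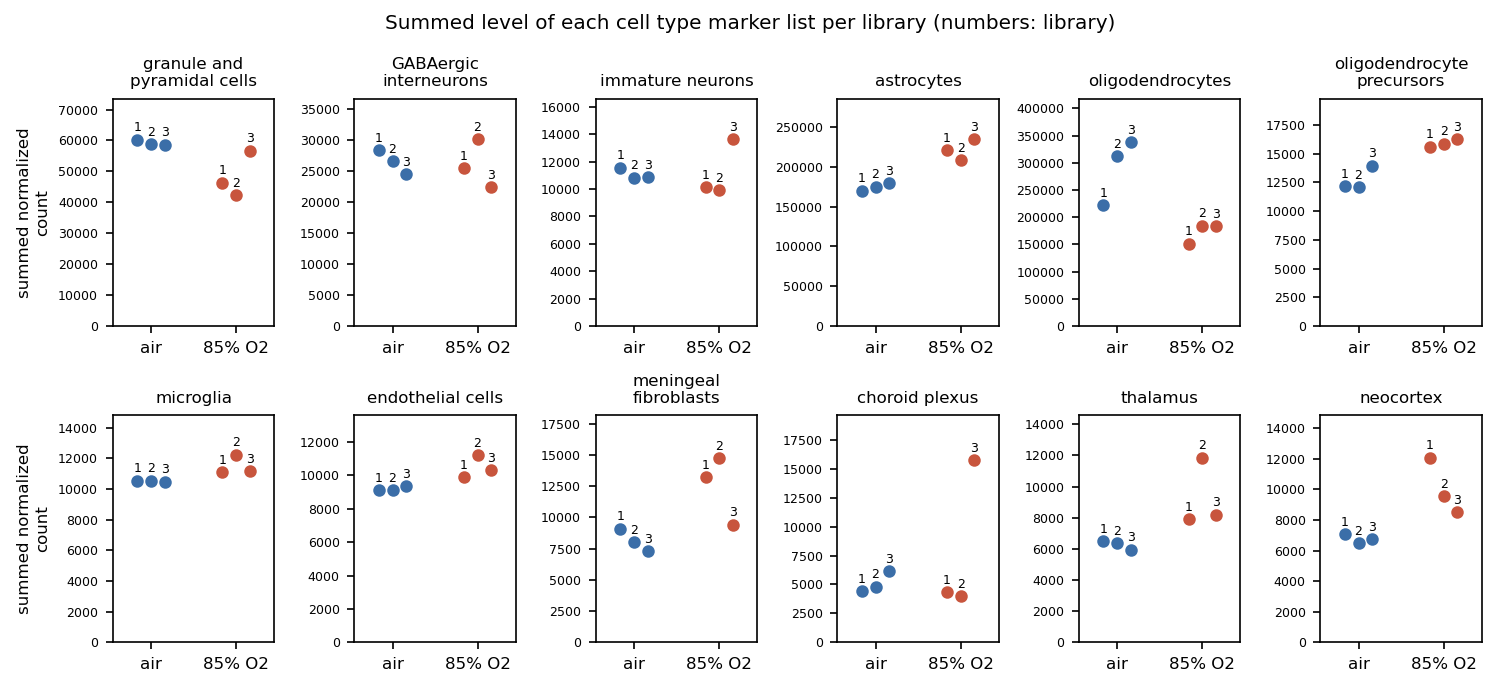
Summed normalized count of 12 lists of cell type marker genes in each library, with air in blue, 85% oxygen in red and the library number above each point. The granule and pyramidal cell sum and the oligodendrocyte sum lay lower, and the astrocyte, oligodendrocyte precursor, microglia, endothelial, meningeal, thalamus and neocortex sums lay higher in all 3 hyperoxia libraries, and hyperoxia library 3 stood apart in the choroid plexus sum.

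Among the guidance genes, Efna5, Dcc, Unc5d, Sema3f and Sema3a had the largest rises in hyperoxia-exposed mice, and Epha7, Unc5a, Robo3, Slit1 and Efna2 the largest falls. Of the 69 genes whose mean normalized count was at least 10, 22 passed the test (limma on log2 of the normalized count plus 1, Benjamini-Hochberg adjusted p under 0.05 over 17778 genes), 16 higher and 6 lower. The shares were 31.9% of the guidance genes called in either direction, 23.2% called higher and 8.7% called lower, beside 30.5%, 14.9% and 15.6% of all genes tested. The share called in either direction was therefore near the background. Because the set was chosen with earlier results known, its share called higher is not a test of the set. The median log2 difference was 0.14 over the guidance genes and −0.01 over all genes tested. The groups did not overlap in 31 of the 69 (44.9%), 24 higher and 7 lower. Over all 17778 genes tested they did not overlap in 46.1%, 3959 higher and 4238 lower. By role, 9 of 34 ligands were higher and 3 lower, and 7 of 34 receptors were higher and 3 lower. After correction of each library for a trend on the length and GC content of transcripts, 19 were higher and 13 lower. Over all genes, 2634 of 17735 were then called higher and 3523 lower, beside 2643 and 2782 of 17778 without the correction. Without air library 1 or air library 2, 9 and 8 were called higher and 4 and 4 lower, and the calls over all genes fell from 5425 to 3056 and 3083. Without hyperoxia library 2, 24 were called higher and 8 lower, and the calls over all genes rose to 7771. Calls that single genes gained without that library are to be read beside this rise. Calls over all genes were 3672 without air library 3 and 3375 without hyperoxia library 1. Calls that single genes lost without these libraries or air library 1 or 2 are likewise to be read beside the fall over all genes. The gene that was not tested, Unc5cl, had 3.54 to 15.9 normalized counts, and Unc50 had a log2 difference of 0.23 (adjusted p = 0.062), with a call without hyperoxia library 2 (0.24, adjusted p = 0.044). In whole tissue, fewer cells of a type and less RNA per cell cannot be told apart. Because 1 is added before the logarithm, log2 differences of genes with few counts are smaller than their true change.

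**Figure D2:**
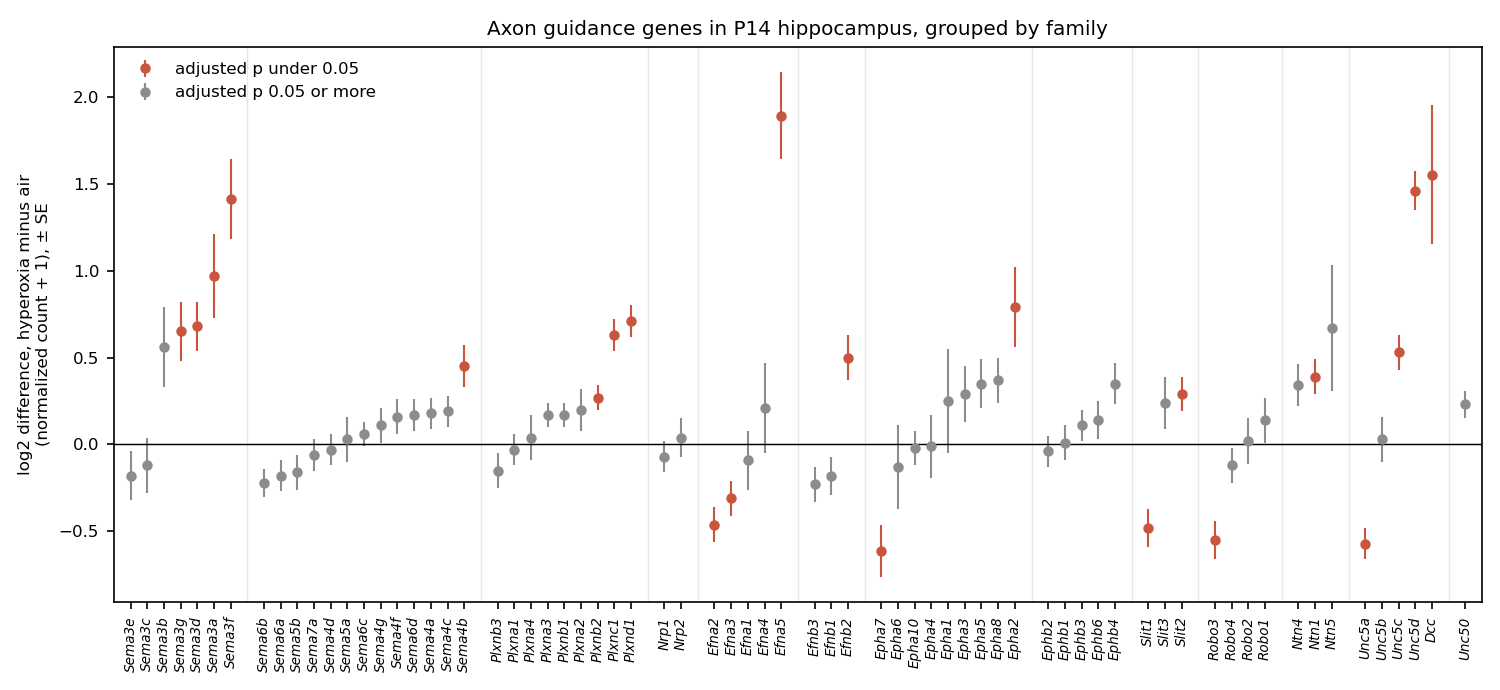
Log2 difference of the normalized count plus 1, hyperoxia minus air, with its standard error, for the 69 tested guidance genes, ordered within families (semaphorins, plexins, neuropilins, ephrins, Eph receptors, Slits, Robos, netrins, netrin receptors and Unc50 from left to right). Red points are the 22 genes with an adjusted p under 0.05, 16 above and 6 below 0, and the range runs from −0.61 for Epha7 to 1.89 for Efna5.

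The SD of the log2 values was larger in hyperoxia than in air for 49 of the 69 genes. Over all genes tested, replicate pairs differed by a chi-square per gene of 6.51 to 10.51 in air and 15.4 to 47.23 in hyperoxia. Pairs that held hyperoxia library 2 were at 31.67 and 47.23. The wider spread is thus not particular to the guidance genes. Hyperoxia library 2 was the lowest of the 3 for 35 of the 69 genes, and hyperoxia library 3 the highest for 37, an order not counted over all genes. Hyperoxia library 2 also had the lowest and library 3 the highest sum of granule and pyramidal cell markers (42304 and 56664). The part of this in the results was not tested.

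The 250 bases before the RefSeq gene start are shown, on the strand of the gene and from 5′ to 3′, for the ephrin with the largest rise, the Eph receptor with the largest fall, and a plexin and an Unc5 receptor that moved in opposite directions. Capitals mark matches on either strand to ACGTG or GCGTG, the core letters of a hypoxia response element, or to TGACNNNGC, the core letters of an antioxidant response element. The build is GRCm38.p6, and the windows are chr17:62881318-62881567 on the minus strand for Efna5, chr4:28812881-28813130 on the plus strand for Epha7, chr6:115995006-115995255 on the minus strand for Plxnd1 and chr13:54949161-54949410 on the plus strand for Unc5a.
Efna5: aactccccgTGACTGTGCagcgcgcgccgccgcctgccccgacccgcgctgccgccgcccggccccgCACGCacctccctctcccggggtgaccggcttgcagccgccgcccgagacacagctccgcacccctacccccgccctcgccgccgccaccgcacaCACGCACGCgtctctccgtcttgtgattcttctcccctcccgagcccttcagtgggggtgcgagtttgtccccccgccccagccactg
Epha7: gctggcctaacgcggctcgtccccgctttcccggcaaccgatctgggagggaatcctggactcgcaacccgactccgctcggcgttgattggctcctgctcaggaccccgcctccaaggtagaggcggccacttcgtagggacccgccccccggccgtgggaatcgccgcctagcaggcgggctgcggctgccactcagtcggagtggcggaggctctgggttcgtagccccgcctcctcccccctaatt
Plxnd1: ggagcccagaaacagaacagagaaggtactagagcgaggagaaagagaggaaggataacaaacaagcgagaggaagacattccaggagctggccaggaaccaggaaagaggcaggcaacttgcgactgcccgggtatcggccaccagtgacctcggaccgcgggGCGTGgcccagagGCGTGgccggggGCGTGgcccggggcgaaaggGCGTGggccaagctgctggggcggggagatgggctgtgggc
Unc5a: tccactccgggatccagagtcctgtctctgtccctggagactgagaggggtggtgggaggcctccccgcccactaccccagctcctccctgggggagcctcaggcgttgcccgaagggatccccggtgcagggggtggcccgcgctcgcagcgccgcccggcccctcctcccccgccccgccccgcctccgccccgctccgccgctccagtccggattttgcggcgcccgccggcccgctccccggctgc
The Efna5 window holds 3 hypoxia response core matches, the last of which share a base, and 1 antioxidant response core match. The Plxnd1 window holds 4 hypoxia response core matches, and the windows of Epha7 and Unc5a hold 0 of either. Of the 60 guidance genes with a promoter in the RefSeq table, 31 (51.7%) hold a hypoxia response core match, beside 38.6% of 27025 promoters of the same length, and 6 (10%) hold an antioxidant response core match, beside 10.1%. These matches are letters in a window and say nothing of binding. Both hypoxia response cores contain the letters CG, and the 27025 promoters were not matched to the guidance genes for CG content or expression. Whether matches go with the direction of change was not tested.

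Of the 7 class 3 semaphorins, the secreted repellents, 4 were called, all higher in hyperoxia. That share was 57.1%, beside 30.5% of all genes tested called in either direction and 14.9% called higher. Sema3f (ENSMUSG00000034684.12, chromosome 9 from 107681500 to 107710475, minus strand, GRCm38 as are all gene positions here) encodes the ligand that binds neuropilin-2 and repels hippocampal axons. Its normalized count was 118, 80.4 and 114 in the air libraries (given throughout in the order 1, 2, 3) and 366, 291 and 193 in the hyperoxia libraries. All hyperoxia libraries were above all air libraries, and the log2 difference was 1.41 (SE 0.23, limma adjusted p = 0.0026). Sema3a (chromosome 5 from 13125414 to 13602565, plus strand), which encodes the classic growth cone collapsing factor that binds neuropilin-1, was at 145, 135 and 144 in air and at 440.2, 207 and 236 in hyperoxia. The air libraries lay close together and hyperoxia library 1 stood well above the others (log2 difference 0.97, SE 0.24, adjusted p = 0.014). That call did not survive omission of air library 1 (0.99, adjusted p = 0.053) or air library 2 (0.94, adjusted p = 0.057), with little change in the difference. Without hyperoxia library 1 the difference was 0.64 and still called. Sema3d was at 274, 334 and 322 in air and at 523, 408 and 570.4 in hyperoxia, with no overlap (0.68, SE 0.14, adjusted p = 0.0063). Sema3g, a semaphorin of blood vessels, was at 126, 122 and 182 in air and at 202, 247 and 220.1 in hyperoxia (0.65, SE 0.17, adjusted p = 0.017), and omitting air library 1 or air library 2 ended its call (adjusted p = 0.076 in both).

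The other class 3 semaphorins did not pass the test. Sema3b had low counts, from 40 to 69.7 in air and from 69.5 to 97.2 in hyperoxia, and a log2 difference of 0.56 (adjusted p = 0.097). The more abundant Sema3c and Sema3e had log2 differences of −0.12 and −0.18 (adjusted p = 0.61 and 0.36), and for both hyperoxia library 3 lay above every air library and the other hyperoxia libraries below. Without hyperoxia library 3 both were called lower, at −0.33 for Sema3c (adjusted p = 0.036) and −0.36 for Sema3e (adjusted p = 0.01).

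**Figure D3:**
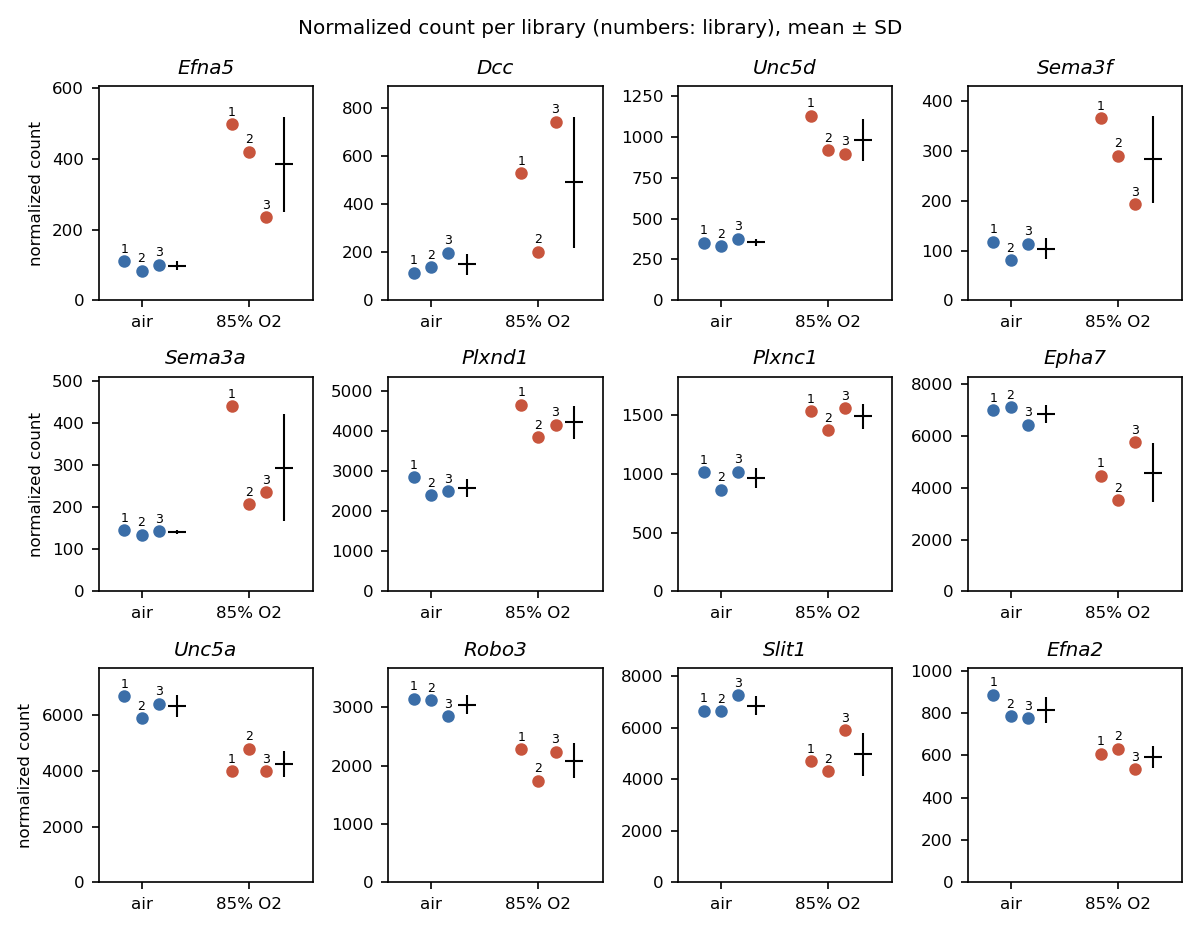
Normalized count per library of 12 guidance genes, with air in blue, 85% oxygen in red, the library number above each point and the mean ± SD of 3 libraries in black. In each of the 12 genes the groups do not overlap, Efna5, Dcc, Unc5d, Sema3f, Sema3a, Plxnd1 and Plxnc1 being higher and Epha7, Unc5a, Robo3, Slit1 and Efna2 lower in hyperoxia, and in Dcc hyperoxia library 2 lies just above the highest air library.

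Of the 13 membrane semaphorins 1 passed the test (7.69%, beside 30.5% of all genes tested). Sema4b was at 729.9, 748 and 855 in air and at 1017, 1269 and 929 in hyperoxia (log2 difference 0.45, SE 0.12, limma adjusted p = 0.02), and omitting air library 1 (adjusted p = 0.088) or air library 2 (0.081) ended its call. The other 12 had log2 differences from −0.22 to 0.19. At the low end was Sema6b, the most abundant semaphorin per kilobase of exon, at 7065, 6474 and 7100.3 in air and 5894, 6308 and 5533 in hyperoxia (−0.22, adjusted p = 0.054). It was called lower without hyperoxia library 2 (−0.27, adjusted p = 0.0069), and Sema6d was then called higher (0.25, adjusted p = 0.011, against 0.17 and 0.16 with all libraries).

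Plexins are the signalling receptors of semaphorins, and 3 of 9 were called, all higher. That share of 33.3% was near the 30.5% of all genes tested called in either direction, while 14.9% of all genes were called higher. Plxnd1 (ENSMUSG00000030123.15, chromosome 6 from 115954811 to 115995005, minus strand), the receptor of Sema3e with known roles in blood vessels and in synapse choice, was at 2843, 2399 and 2499 in air and at 4656, 3848 and 4153 in hyperoxia. The lowest hyperoxia library was well above the highest air library (log2 difference 0.71, SE 0.09, limma adjusted p = 0.0011). Plxnc1, the receptor of Sema7a, was at 1015, 866 and 1019 in air and at 1537, 1371 and 1563 in hyperoxia (0.63, SE 0.09, adjusted p = 0.0017). Plxnb2, a receptor of class 4 semaphorins found on neural progenitors, rose less, from 2353, 2370.0 and 2558 to 2783, 2969.6 and 3021 (0.27, SE 0.07, adjusted p = 0.019), and lost its call without air library 1 (adjusted p = 0.087) or air library 2 (0.089). The calls of Plxnd1 and Plxnc1 held under all 16 alternatives. The other 6 plexins had log2 differences from −0.15 for Plxnb3 to 0.20 for Plxna2, and Plxna2 was called higher without hyperoxia library 2 (0.35, adjusted p = 0.0018).

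Sema3e and Sema7a, the ligands of Plxnd1 and Plxnc1, had log2 differences of −0.18 and −0.06 (adjusted p = 0.36 and 0.63). The neuropilins, which bind Sema3a and Sema3f, gave 0 calls of 2 by limma, edgeR and DESeq2, with 0 of 2 at an unadjusted p under 0.05. By limma 30.5% of all genes tested were called. Nrp1 was at 2403, 2318 and 2542 in air and at 2077, 2264 and 2588 in hyperoxia (−0.07, SE 0.09, adjusted p = 0.57), and Nrp2 at 3749, 3523 and 3504 in air and at 3136, 3588 and 4426 in hyperoxia (0.04, SE 0.11, adjusted p = 0.84). In both genes the groups overlapped. Plxna4, which signals for Sema3a through neuropilin-1, was at 7725, 7584 and 7814 in air and at 7641, 6565 and 9838 in hyperoxia (0.04, SE 0.13, adjusted p = 0.85). Its difference turned to −0.24 (adjusted p = 0.026) when the trend on transcript length and GC content was removed.

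The ephrin-A ligands moved apart, with Efna5 higher and Efna2 and Efna3 lower. Efna5 (ENSMUSG00000048915.12, chromosome 17 from 62604184 to 62881317, minus strand), a lipid-anchored ligand known for setting up topographic maps, was at 110.2, 84.5 and 101 in air and at 498, 420.0 and 236 in hyperoxia. The lowest hyperoxia library was above every air library, and the log2 difference of 1.89 (SE 0.25, limma adjusted p = 0.001) was the largest of the guidance genes. It lay between 1.67 and 2.21 when each library was left out in turn. Efna2 was at 886, 784 and 776 in air and at 608, 632 and 536 in hyperoxia (−0.46, SE 0.10, adjusted p = 0.0069). Efna3 was at 946, 969.8 and 1043 in air and at 708, 902 and 788 in hyperoxia (−0.31, SE 0.10, adjusted p = 0.042). Omitting air library 1, 2 or 3 (adjusted p = 0.092, 0.11 and 0.14) or hyperoxia library 1 or 3 (0.15 and 0.071) ended the call of Efna3. Efna3 shares 344 exon bases with the antisense gene Gm15998, on the opposite strand, and no source used here states whether reads were counted by strand.

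Summed per kilobase of exon, the share of Efna5 among the ephrin-A ligands was 2.71% ± 0.28 (SD, n = 3) for air and 12% ± 3.66 for hyperoxia. Efna2 and Efna3 were the main ephrin-A transcripts in every library, Efna2 at 42.5% ± 2.55 in air and 35.3% ± 0.86 in hyperoxia. The minor ligands Efna1 and Efna4 had log2 differences of −0.09 and 0.21 (limma adjusted p = 0.73 and 0.58). The shares are taken within a library and do not depend on its size factor. They do depend on the exon length, which joins all annotated exons of a gene, whether used in this tissue or not. In hyperoxia libraries 1, 2 and 3 the share of Efna5 was 15.6%, 12.1% and 8.25%, and the summed neocortex markers stood in the same order, at 12070.5, 9563 and 8508. Of the other called guidance genes, Sema3f, Unc5d and Efnb2 had that order too. Few orders of 3 libraries are possible, and how many of all genes share an order was not counted, here or below. The part of neocortex tissue in these results was not tested.

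Among the ephrin-B ligands, which are transmembrane proteins, 1 of 3 was called (33.3%, beside 30.5% of all genes tested). Efnb2, found in neurons and arteries, was at 1202, 1016 and 1096 in air and at 1838, 1627 and 1277 in hyperoxia (log2 difference 0.50, SE 0.13, limma adjusted p = 0.016). It lost the call without air library 2 (adjusted p = 0.076), air library 3 (0.054) or hyperoxia library 1 (0.063). Efnb3, the guidance gene with the highest level per kilobase of exon, was at 6817, 7148 and 7243 in air and at 5423, 7067 and 5752 in hyperoxia. Hyperoxia library 2 lay within the air range and the others below it (−0.23, SE 0.10, adjusted p = 0.11). Without hyperoxia library 2 the difference was −0.34 and called (adjusted p = 0.0011). Efnb1 had a log2 difference of −0.18 (adjusted p = 0.24).

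Of the 9 EphA receptors, limma and edgeR each called 1 lower and 1 higher, and DESeq2 called 1 lower and 3 higher, with Epha5 (0.38, adjusted p = 0.021) and Epha8 (0.38, adjusted p = 0.03) added. The limma calls were 22.2% of these receptors, beside 30.5% of all genes tested. Epha7 (ENSMUSG00000028289.12, chromosome 4 from 28813131 to 28967499, plus strand), a receptor for ephrin-A ligands that limits dendrites and synapses, was at 6994, 7124 and 6452 in air and at 4474, 3527 and 5776 in hyperoxia. The groups did not overlap, although hyperoxia library 3 approached the air range (log2 difference −0.61, SE 0.15, limma adjusted p = 0.014). Omitting air library 1 (−0.59, adjusted p = 0.061) or air library 2 (−0.58, adjusted p = 0.06) ended the call, with little change in the difference. The hyperoxia libraries stood in the order of their granule and pyramidal cell marker sums (46343, 42304 and 56664 in libraries 1, 2 and 3), and the part of this was not tested. Other guidance genes had this order too, among them Dcc and Sema3d, which were called higher. Epha2, a receptor better known from epithelia and vessels, had low counts of 36.7, 65.1 and 57.5 in air and 83.1, 101 and 86.9 in hyperoxia (0.79, SE 0.23, adjusted p = 0.026). It did not pass without air library 1 (adjusted p = 0.08) or hyperoxia library 1 (0.058).

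Epha4, the most abundant Eph receptor per kilobase of exon, was at 11012, 10712 and 11089 in air and at 11399, 7753 and 14456 in hyperoxia. The spread between hyperoxia libraries was far wider than that between air libraries, and the difference of −0.01 (SE 0.18, limma adjusted p = 0.97) was not distinguishable from 0. Epha5 was at 5796 to 6262 in air and at 7921, 6143 and 9537 in hyperoxia (0.35, adjusted p = 0.077), and without hyperoxia library 2 it was called higher (0.52, adjusted p = 5.4e-04), as was Epha3 (0.50, adjusted p = 8.7e-04 against 0.29 and 0.19 with all libraries). Epha6 was at 1054, 731 and 1680.4 in hyperoxia around 1193 ± 82.1 (SD, n = 3) in air, and without hyperoxia library 3 it was called lower (−0.44, adjusted p = 0.039). Epha8 was at 424 to 519 in air and 524 to 706 in hyperoxia (0.37, adjusted p = 0.058), and was called higher without hyperoxia library 3 (0.50, adjusted p = 0.011). The remaining EphA receptors, the scarce Epha1 and the kinase-inactive Epha10, had differences of 0.25 and −0.02 (adjusted p = 0.54 and 0.89).

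The EphB receptors, which bind ephrin-B ligands and act at excitatory synapses, gave 0 calls of 5 by limma, beside 30.5% of all genes tested. At an unadjusted p under 0.05 by limma there was 1 of 5. By edgeR 0 and by DESeq2 1 of the 5 was called. That gene was Ephb4, a receptor of veins, at 375, 310.4 and 309 in air and 377, 468 and 422 in hyperoxia (log2 difference 0.35, limma adjusted p = 0.052). It was called without air library 1 (0.44, adjusted p = 0.049). Ephb2, which binds ephrin-B ligands and also ephrin-A5, was at 2694, 2455 and 2299 in air and at 2304, 2259 and 2699 in hyperoxia (−0.04, SE 0.09, adjusted p = 0.78), and the groups overlapped. Ephb1, Ephb3 and the kinase-inactive Ephb6 had differences of 0.01, 0.11 and 0.14 (adjusted p = 0.96, 0.38 and 0.38), and Ephb6 was called higher without hyperoxia library 3 (0.28, adjusted p = 0.023).

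Slits, the secreted ligands of Robo receptors, moved in opposite directions. Slit1 (ENSMUSG00000025020.11, chromosome 19 from 41600257 to 41743665, minus strand), the main Slit of these libraries, was at 6651, 6642 and 7260.4 in air and at 4709.7, 4299.9 and 5887 in hyperoxia. All hyperoxia libraries were below all air libraries (log2 difference −0.48, SE 0.11, limma adjusted p = 0.011), and the call held under all 16 alternatives. Slit2 was at 1213, 1168 and 1362 in air and at 1438, 1429.9 and 1701 in hyperoxia (0.29, SE 0.10, adjusted p = 0.047). The call held under 9 of 16 alternatives, as did that of Efna3. It ended without air library 1 or 2 (adjusted p = 0.15 and 0.17) and without hyperoxia library 1 or 3 (0.074 and 0.12), and the difference was −0.02 (adjusted p = 0.87) when the trend on transcript length and GC content was removed. Slit3 was at 1493, 1329 and 1642 in air and at 1825, 1357 and 2156 in hyperoxia (0.24, SE 0.15, adjusted p = 0.26), with a call without hyperoxia library 2 (0.42, adjusted p = 0.0059). Per kilobase of exon, Slit1 made up 79.8% ± 0.99 (SD, n = 3) of the Slits in air and 70.5% ± 1.61 (SD, n = 3) in hyperoxia.

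Among the Robo receptors 1 of 4 was called (25%, beside 30.5% of all genes tested). Robo3 (ENSMUSG00000032128.15, chromosome 9 from 37415669 to 37433246, minus strand), best known for letting commissural axons cross the midline, was at 3146, 3126 and 2851 in air and at 2279.7, 1741 and 2241 in hyperoxia. The groups were well apart (log2 difference −0.55, SE 0.11, limma adjusted p = 0.005), and the call held under all 16 alternatives. The main Slit receptors overlapped between groups. Robo1 was at 3206, 2828 and 2997 in air and at 3171, 2799.8 and 4122 in hyperoxia (0.14, SE 0.13, adjusted p = 0.42). Robo2 was at 4653, 4203 and 4209 in air and at 4821, 3487 and 5102 in hyperoxia (0.02, SE 0.13, adjusted p = 0.92). Robo2 turned from one setting to another, being called higher without hyperoxia library 2 (0.19, adjusted p = 0.039) and lower with the length and GC trend removed (−0.29, adjusted p = 0.013). Robo3 made up 46.6% ± 1.62 (SD, n = 3) of the Robo transcripts per kilobase of exon in air and 36.5% ± 1.58 (SD, n = 3) in hyperoxia.

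**Figure D4:**
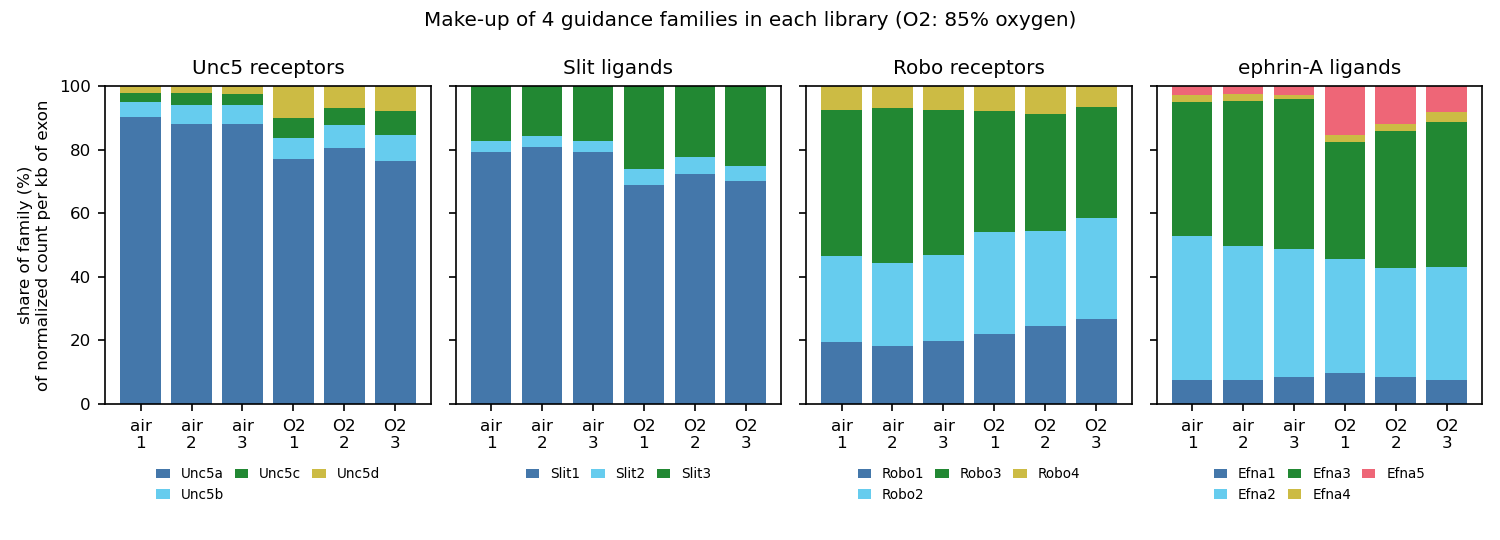
Share of each gene in the summed normalized count per kilobase of exon of 4 guidance families, as stacked bars for the 3 air and 3 hyperoxia (O2) libraries. Unc5a, Slit1 and Robo3 take smaller shares, and Unc5d and Efna5 larger ones, in all 3 hyperoxia libraries than in any air library.

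Of the 5 netrin receptors 4 were called, 3 higher and 1 lower (80%, beside 30.5% of all genes tested). Unc5d (ENSMUSG00000063626.6, chromosome 8 from 28646717 to 29219636, minus strand), a receptor of netrins and of the Flrt proteins, was at 352, 332 and 377 in air and at 1129, 917 and 896 in hyperoxia. Each group was tight and the groups were far apart, and its adjusted p was the lowest of the guidance genes (log2 difference 1.46, SE 0.11, limma adjusted p = 2.1e-04). Unc5c was at 1009.6, 1151 and 1152 in air and at 1483, 1477 and 1854 in hyperoxia (0.53, SE 0.10, adjusted p = 0.0054), and with the trend on length and GC content removed its difference was 0.22 (adjusted p = 0.069). Unc5a (ENSMUSG00000025876.15, chromosome 13 from 54949411 to 55006018, plus strand) was at 6663, 5879 and 6404 in air and at 3982, 4791 and 3993 in hyperoxia, all below the air libraries (−0.57, SE 0.09, adjusted p = 0.0021). Unc5b, at 519 to 663 in air and 510.0 to 652 in hyperoxia, had a log2 difference of 0.03 (SE 0.13, adjusted p = 0.86).

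Unc5a thus fell while Unc5c and Unc5d rose, and the make-up of the family shifted. Per kilobase of exon, the share of Unc5a in the Unc5 transcripts was 88.8% ± 1.17 (SD, n = 3) for air and 78% ± 2.1 for hyperoxia. That of Unc5d was 2.25% ± 0.09 for air and 8.2% ± 1.52 for hyperoxia. Unc5a was the main member in every library. The joined exon length was 4168 bases for Unc5a and 19135 for Unc5c, so the size of these shares depends on the annotation. Unc5a shares 34 exon bases with Hk3 and Unc5c 118 with the antisense gene Gm15688, both on the opposite strand.

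Dcc, the receptor that mediates attraction to netrin-1, was at 116, 137 and 198 in air and at 529, 203 and 743 in hyperoxia. Hyperoxia library 2 stood just above the highest air library and far below the other hyperoxia libraries, and the difference had the largest standard error of the called genes (log2 difference 1.55, SE 0.40, limma adjusted p = 0.018). Leaving out 1 library gave values from 1.15 to 2.09. Omitting air library 1 (adjusted p = 0.082), air library 2 (0.066) or hyperoxia library 1 (0.069) ended the call. Hyperoxia library 2 had the highest sum of thalamus markers (11850.3). Hyperoxia library 3, where Dcc was highest, had the highest sums of choroid plexus (15739) and of immature neuron markers (13645, beside 9907 to 11574 elsewhere). The immature neuron list was split, with 1 of 6 genes called higher and 2 lower in hyperoxia. The part of these tissues and cells in the result was not tested.

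Of the netrins, Ntn1, which encodes the secreted ligand of Dcc and Unc5 receptors, was at 412, 374 and 444 in air and at 521, 581 and 513 in hyperoxia (log2 difference 0.39, SE 0.10, limma adjusted p = 0.016). It did not pass when air library 1 (adjusted p = 0.058) or air library 2 (0.08) was omitted. Ntn4, a netrin of basement membranes, was at 248, 241 and 295 in air and at 358, 314 and 318 in hyperoxia, with no overlap (0.34, adjusted p = 0.051). It was called by edgeR (0.34, adjusted p = 0.049), and by limma without air library 3 (0.43, adjusted p = 0.043) or hyperoxia library 2 (0.37, adjusted p = 0.028). Ntn5 was low, from 14.4 to 33.6 in air and from 30.1 to 53.2 in hyperoxia (0.67, SE 0.36, adjusted p = 0.18), and shares 519 exon bases with Sec1 on the opposite strand.

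Some of the called genes are known from blood vessels, namely Sema3g, Plxnd1, Efnb2 and Epha2. Summed endothelial markers were at 9103 to 9353 in air and at 9889 to 11225 in hyperoxia, with 4 of 8 genes higher and 2 lower, and summed markers of meningeal fibroblasts at 7305 to 9092 and 9432 to 14759.9, with 5 of 6 higher. In hyperoxia libraries 1, 2 and 3 the endothelial sums were 9889, 11225 and 10319. The counts of Sema3g and Epha2 stood in that order, those of Plxnd1 in the opposite order, and those of Efnb2 in neither. Robo4, the Robo of endothelial cells, was at 354 to 399 in air and 325 to 367 in hyperoxia (log2 difference −0.12, limma adjusted p = 0.37). The part of vessel and meningeal cells in these results was not tested.

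The levels of the guidance genes, compared per kilobase of exon, spanned from Efnb3, at 2221 ± 70.2 (SD, n = 3) in air and 1910.3 ± 273 in hyperoxia, to Epha1, at 3.69 ± 0.54 and 4.47 ± 0.75, and Unc5cl below it. After Efnb3 the highest were Sema6b, Epha4, Sema7a, Unc5a and Slit1, with means over all libraries of 1612, 1374, 1296, 1268 and 998. The genes with the largest rises were among the lower ones. Efna5 went from 24.4 ± 3.22 in air to 95.3 ± 33.4 in hyperoxia, Sema3f from 20 ± 3.95 to 54.5 ± 16.7, Dcc from 11.4 ± 3.24 to 37.3 ± 20.7 and Sema3a from 10.2 ± 0.38 to 21.2 ± 9.17. Unc5d, which went from 38.3 ± 2.45 to 106 ± 14, thereby passed Unc5b (93.7 ± 11.6 and 96 ± 12.6) in the group means, by less than its spread.

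Other molecules of axon guidance, such as contactins, Flrt proteins, netrin-G ligands and coreceptors, were called in 9 of 30 genes, 7 higher and 2 lower. That share of 30% was near the 30.5% of all genes tested. Flrt1, a family member of the Unc5d ligands, was at 584, 477 and 567 in air and at 1124, 708 and 941 in hyperoxia (log2 difference 0.75, SE 0.16, limma adjusted p = 0.0072). Ntng1, a membrane-anchored relative of the netrins found on thalamic axons, was at 723, 537 and 714 in air and at 1097, 1408 and 732 in hyperoxia, where hyperoxia library 2, with the highest thalamus marker sum, was also the highest (0.68, SE 0.21, adjusted p = 0.038). The call of Ntng1 ended without air library 1, 2 or 3 (adjusted p = 0.078, 0.15 and 0.068), without hyperoxia library 1 (0.11), and with the length and GC trend removed (0.11). Cntn1, a contactin of axons, rose from 10622 ± 538 (SD, n = 3) to 16718 ± 2895 (SD, n = 3), a log2 difference of 0.64 (adjusted p = 0.0042). Lrrc4, a postsynaptic netrin-G ligand, fell from 4285 ± 212 to 3122 ± 55 (−0.46, adjusted p = 0.0017). Islr2, a membrane protein needed for axon extension, fell from 9919 ± 633 to 7925 ± 1065 (−0.33, adjusted p = 0.033). The call of Islr2 ended without air library 1, 2 or 3 (adjusted p = 0.14, 0.085 and 0.07), without hyperoxia library 1 (0.13), and under quantile normalization (0.054).

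Inside the cell, guidance receptors act through collapsin response mediator proteins (the Dpysl genes), regulators of small GTPases and actin-binding proteins. Of 51 such genes 23 were called (45.1%, beside 30.5% of all genes tested). The 18 higher were 35.3% of the list, beside 14.9%, and the 5 lower were 9.8%, beside 15.6%, with a median log2 difference of 0.14. This list was drawn up with earlier results of these data known, so its share is not a test of the pathway. When only genes with a mean of 50 or more were tested, 24 genes of the list and 5144 of 14099 genes in all were called. Dpysl3 and Dpysl5, both of the family that relays semaphorin 3A signals to microtubules, had the largest rises. Dpysl3 was at 5641, 5015 and 5229 in air and at 10593, 9824 and 12697 in hyperoxia (1.05, SE 0.10, limma adjusted p = 3.3e-04), and Dpysl5 at 4882, 4041 and 4116 and at 7832, 7533 and 7128 (0.79, SE 0.09, adjusted p = 5.4e-04). Gap43, a growth cone protein, rose from 6790.3 ± 592 to 10239 ± 1157 (0.59, adjusted p = 0.0027). Among the falls were those of Ablim3, which encodes an actin-binding protein (−0.55, adjusted p = 0.0062), and Chn1 (−0.52, adjusted p = 0.0014). Chn1 encodes alpha-chimaerin, a Rac regulator acting below EphA4, and fell from 24529 ± 1313 to 17129 ± 331. Summed astrocyte markers were at 208517 to 234483 in hyperoxia and 169966 to 179284 in air, with 3 of 7 genes called higher and 1 lower. Most of that sum was Slc1a2, a glutamate transporter, at 104640.0 ± 6138 (SD, n = 3) in air and 149380.3 ± 15672 in hyperoxia. Summed markers of oligodendrocyte precursors were at 15616 to 16278 in hyperoxia and 12065 to 13978 in air, with 2 of 5 genes called higher. The part of these cells in the list was not tested. Without air library 1 or air library 2 the called genes of this list were 12 and 11, and those of the other guidance molecules 5 and 5.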

How the data were processed

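RNA-seq was made from the left hippocampus of 3 air- and 3 hyperoxia-exposed mice, as strand-specific polyA libraries read as paired ends. The signal deposited by the authors is a read count per gene divided by 1 size factor per library with DESeq2. Per the labels, the authors used FastQC, STAR 2.5.3a and HTSeq. No source used here gives the genome build, annotation or strand setting. A second deposited table with the authors' own comparison (fold changes and p-values) was not used. In each library 100% of the values lay within 0.01 of whole reads. On these recovered reads, edgeR 4.0.16 called 5501 genes and DESeq2 1.42.0 called 5611, as alternatives.

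Genes with a mean of 10 or more (17778) were tested for hyperoxia minus air by limma 3.58.1 in R 4.3.3, with 1 added to the deposited values before taking log2 and with the variance modelled as a trend on the mean. P-values were adjusted by Benjamini and Hochberg, with a threshold of 0.05. The script was tested on simulated data. For groups of 3, an exact permutation test of a single gene (two-sided) cannot give a p under 0.1. The labels give separate animals. P-values rest on 1 variance per gene for both groups, drawn toward the trend over all genes, although hyperoxia libraries spread more than air libraries. The fit held the group alone, and litter, shared exposure and sex were not taken into account. Replicate pairs of the same group differed by more than sampling noise (chi-square per gene from 6.51 to 47.23). Alternatives were adding 0.5 or 5, testing all genes or those with a mean of 50 or more, TMM scaling, quantile normalization, no variance trend, the 2 count tests, removal of the trend on length and GC content (mgcv 1.9.3), and leaving out each library. Single outlying libraries were not tested for.

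The guidance genes, marker lists and pathway lists were chosen with earlier results of these data known. Named were all called guidance genes, a fixed set of classical ones whatever their values, some whose call another setting or a left-out library changed, and the 3 largest called rises and falls of each pathway list. A gene that this rule takes is not reported here. A few further genes, given as family extremes, partners or low-count genes, were chosen after their values were seen. Positions and exon lengths are from GENCODE M21 (GRCm38), which holds 99.7% of the gene identifiers, and promoters from RefSeq (GRCm38.p6), which matched 60 of the 70 genes. An exon length joins the exons of all annotated transcripts of a gene. Levels, ranks and shares per kilobase of exon therefore depend in part on the annotation. Of the guidance genes, 13 share exon bases with a gene on the opposite strand. Python 3.11.15, numpy 2.4.6, pandas 2.3.3 and matplotlib 3.10.9 made the tables and figures.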

Additional observations from a re-analysis of the deposited data

How the results depend on the processing

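No paired analysis was possible because the groups share no replicate number in the labels. Without the mean-variance trend, 10 guidance genes were called higher in place of 16, 5 other guidance molecules in place of 9 and 14 signalling genes in place of 23. Over all genes tested, 4224 were then called in place of 5425, and 1981 called higher in place of 2643. With the trend on length and GC content removed, 13 guidance genes were called lower in place of 6, and 3523 of all genes in place of 2782. That correction also turned the sign of Slit2 (−0.02), a called gene, and of Robo2 (−0.29), Sema5a (−0.29), Plxna4 (−0.24), Nrp2 (−0.12), Plxna2 (−0.07), Robo1 (−0.06), Ephb1 (−0.02), Unc5b (−0.02), Efna1 (0.07) and Sema7a (0.03). With each library left out in turn, 8 to 24 guidance genes were called higher and 4 to 8 lower, and 5 to 11 other guidance molecules and 11 to 33 signalling genes were called. The calls over all genes then ran from 3056 without air library 1 to 7771 without hyperoxia library 2, beside 5425 with all libraries. The cause of these shifts was not tested, beyond the fewer libraries of the last. Of the 22 called guidance genes, 10 were called under all 16 alternatives, namely Unc5d, Efna5, Plxnd1, Plxnc1, Unc5a, Sema3f, Robo3, Sema3d, Efna2 and Slit1. Over the 80 tested guidance genes and rule-chosen pathway genes, 1148 of 1277 values under alternatives kept direction and side of the threshold, 52 were no longer called, 36 became called and 41 changed sign, in 19 genes. Apart from Slit2 these genes were not called with all libraries. Leaving out 1 library moved Epha4 from −0.22 to 0.23 (0.04 with quantile normalization, edgeR and DESeq2), Epha6 from −0.44 to 0.16, Sema3c from −0.33 to 0.06, Robo2 from −0.09 to 0.19, Robo1 from −0.01 to 0.27, Plxna4 from −0.12 to 0.17, Nrp2 from −0.10 to 0.15, Nrp1 from −0.16 to 0.00, Sema5a from −0.15 to 0.13, Efna1 from −0.19 to 0.09, Unc5b from −0.05 to 0.15, Ephb1 from −0.09 to 0.09, Ephb2 from −0.12 to 0.02, Epha10 from −0.12 to 0.03, Plxna1 from −0.11 to 0.04, Sema4d from −0.08 to 0.05 and Sema7a from −0.10 to 0.02. Counting error was small beside the spread between mice except for low genes such as Epha2 (39 to 94 reads per library).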
